A study of Mus musculus with 21 samples.

Results

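The 40 genes described here carry out, drive or restrain DNA replication and cell division: the replicative helicase, enzymes of DNA synthesis, cyclins and their kinases, mitotic regulators, chromatin proteins used as proliferation markers, and a pair of inhibitors of cyclin-dependent kinases. They were a list of symbols, matched to the Ensembl identifiers of the deposited tables; all 40 were found, each under 1 identifier, among 35598 genes. Expression was measured in glomeruli cut from kidney sections by laser, with 3′ tag RNA sequencing (QuantSeq FWD, which reads the end of polyadenylated transcripts), in 21 female mice aged 3 months, 1 library per mouse. The cKO mice had floxed alleles of Epac1 (Epac1fl/fl) and a Cre recombinase active in podocytes, the filtration cells of the glomerulus; their flox littermates had Epac1fl/fl and no Cre, so both genotypes carry the floxed alleles. Glomerulonephritis was induced with decomplemented nephrotoxic serum (NTS), an antiserum given intravenously on 2 consecutive days, and control mice were given PBS. There were 3 cKO and 3 flox PBS libraries, 4 cKO and 3 flox libraries from day 4, and 4 cKO and 4 flox libraries from day 11. The study set out to examine what podocyte Epac1 does as this disease progresses.

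A cell enters the cycle when D-type cyclins with Cdk4, and then cyclin E with Cdk2, inactivate the retinoblastoma protein and release E2F transcription factors, which switch on the genes of DNA replication. Genes of mitosis come on later, under a later programme that acts on promoters holding a CHR element and CCAAT boxes. Most cells of a healthy adult glomerulus rarely divide, and dividing cells in glomerulonephritis have been described among mesangial, endothelial, parietal epithelial and infiltrating immune cells.

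Libraries held 4550545 to 24295719 reads (median 19470092), and 7871 to 13006 genes had at least 1 read. A ribosomal RNA gene took 14.9% to 39.5% of reads. Levels are given in CPM, read counts scaled to a common library size with TMM factors, so they can be compared between libraries but not between genes. Rapgef3, which encodes Epac1, stood at 64.4 to 160.5 CPM in cKO and 201 to 310.2 CPM in flox PBS libraries, without overlap. At day 4 it was 63.4 to 146 CPM in cKO and 124 to 231 CPM in flox, and at day 11 139 to 199.5 CPM in cKO and 131 to 347 CPM in flox, so the genotypes overlapped at both nephritis stages. Other glomerular cells also express this gene, and whether its 3′ tags lie in the deleted part is not given in the sources used here. All 6 podocyte, 7 endothelial and 6 mesangial markers had reads in every library. Proximal tubule markers summed to 1579 to 4110.2 CPM under PBS, 1683 to 6379 CPM at day 4 and 483 to 2913 CPM at day 11. An alternative left out 3 libraries, a set chosen with earlier results of these data known: cKO day 4 replicate 3 had the fewest genes with reads, cKO day 11 replicate 3 the fewest reads, and flox day 11 replicate 1 had 9933 genes with reads, the fewest at day 11. They include the libraries with the fewest of the 40 genes read at day 4 and at day 11. Of the 21 libraries, cKO day 4 replicate 3 also had the highest proximal and distal tubule marker sums (6379 and 3684 CPM). Its mesangial and macrophage marker sums were the lowest (442 and 77.7 CPM). Other libraries were extreme too: cKO day 4 replicate 2 (9032) and flox PBS replicate 1 (9777) had fewer genes with reads than flox day 11 replicate 1, and cKO day 11 replicate 4 had the highest ribosomal RNA share and the lowest TMM factor (0.751).

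The promoters of 6 genes are shown as examples that hold the elements of these programmes. None of the 6 was called by edgeR with all libraries, and a link between the letters and the levels was not tested. RefSeq promoter windows, from 250 bases before to 50 bases after the start, were found for 31 of the 40 genes. Incenp and Lmnb1 were among the 9 without one. An E2F site was searched as TTTGGCGC, TTTGCCGC, TTTCGCGC or TTTCCCGC, a CHR element as TTTGAA or TTCGAA and a CCAAT box as CCAAT, on both strands. The E2F letters were in 6 of the 31 windows (19.4%) and in 2.60% of the windows of 27025 genes, the CHR letters in 15 (48.4%) and 21.7%, and the CCAAT letters in 25 (80.6%) and 41.1%. They were spread by role: E2F letters were in 4 of 5 helicase windows and 0 of 9 mitotic ones, and CHR letters were in 8 of 9 mitotic windows, in Mki67, Top2a and Hmgb2, in Ccnb2 and Cdk1, and in 2 of 5 helicase windows (Mcm2 and Mcm7). In the 250 bases before the start alone, CHR letters were in 4 of the 9 mitotic genes and E2F letters in 3 of the 5 helicase genes. A match describes letters, not a bound site. The sequences are the 250 bases before the start in GRCm38.p6, 5′ to 3′ on the strand of the gene, with matches in capitals: Mcm5 at chr8:75109259-75109508 (plus strand), Ccnb2 at chr9:70421555-70421804 (minus), Cdk1 at chr10:69352913-69353162 (minus), Ube2c at chr2:164769679-164769928 (plus), Mki67 at chr7:135716380-135716629 (minus) and Top2a at chr11:99024190-99024439 (minus).
Mcm5: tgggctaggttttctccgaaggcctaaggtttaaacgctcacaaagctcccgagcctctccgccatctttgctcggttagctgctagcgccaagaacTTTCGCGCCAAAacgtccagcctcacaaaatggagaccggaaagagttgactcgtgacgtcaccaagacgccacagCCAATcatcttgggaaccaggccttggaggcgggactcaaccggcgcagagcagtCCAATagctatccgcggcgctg
Ccnb2: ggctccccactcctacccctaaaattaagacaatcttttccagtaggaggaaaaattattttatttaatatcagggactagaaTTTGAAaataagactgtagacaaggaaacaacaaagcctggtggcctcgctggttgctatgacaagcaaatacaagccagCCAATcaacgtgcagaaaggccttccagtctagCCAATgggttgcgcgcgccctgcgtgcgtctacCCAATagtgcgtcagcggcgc
Cdk1: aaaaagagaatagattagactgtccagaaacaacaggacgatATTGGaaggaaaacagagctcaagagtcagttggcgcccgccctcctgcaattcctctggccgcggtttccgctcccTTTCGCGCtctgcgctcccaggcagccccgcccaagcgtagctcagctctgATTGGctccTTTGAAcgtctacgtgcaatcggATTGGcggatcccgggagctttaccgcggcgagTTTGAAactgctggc
Ube2c: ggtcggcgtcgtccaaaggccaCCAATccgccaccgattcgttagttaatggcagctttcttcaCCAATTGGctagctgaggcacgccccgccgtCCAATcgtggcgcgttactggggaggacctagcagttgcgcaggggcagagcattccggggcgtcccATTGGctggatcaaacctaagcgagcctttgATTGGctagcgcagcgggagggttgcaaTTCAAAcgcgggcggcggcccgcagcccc
Mki67: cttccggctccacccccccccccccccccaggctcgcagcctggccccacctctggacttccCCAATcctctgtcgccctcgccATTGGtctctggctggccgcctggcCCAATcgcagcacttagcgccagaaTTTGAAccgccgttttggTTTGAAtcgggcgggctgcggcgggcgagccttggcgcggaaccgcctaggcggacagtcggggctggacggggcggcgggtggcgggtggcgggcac
Top2a: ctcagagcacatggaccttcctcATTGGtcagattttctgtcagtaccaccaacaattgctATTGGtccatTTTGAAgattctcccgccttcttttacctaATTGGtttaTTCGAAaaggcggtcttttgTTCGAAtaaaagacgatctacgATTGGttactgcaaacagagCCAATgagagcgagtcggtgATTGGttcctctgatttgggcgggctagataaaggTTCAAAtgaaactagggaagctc
In Mcm5 an E2F match on each strand overlaps and the capitals run together, and in Ube2c a CCAAT match on each strand overlaps. Cdk1 holds E2F, CHR and CCAAT letters, Mcm5 E2F and CCAAT letters, and the other 4 CHR and CCAAT letters.

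Under PBS a smaller share of the listed genes had reads than in nephritis. Of 240 pairs of a listed gene and a PBS library, 133 (55.4%) had a read, and the counts were 209 of 280 (74.6%) at day 4 and 264 of 320 (82.5%) at day 11. In cKO libraries the share was 65.8% under PBS, 68.75% at day 4 and 84.4% at day 11. In flox libraries it was 45.0%, 82.5% and 80.6%, so the day 4 rise lay mostly in flox mice. The number of the 40 genes with reads was 20, 25 and 34 in cKO and 16, 17 and 21 in flox PBS libraries. It was 33, 28, 17 and 32 in cKO and 33, 35 and 31 in flox libraries at day 4, and 34, 37, 30 and 34 in cKO and 23, 38, 34 and 34 in flox libraries at day 11. The low values at day 4 and day 11 came from cKO replicate 3 and flox replicate 1, named above, and the high PBS value from cKO replicate 3. Over all 13898 tested genes the share with reads differed less by stage, at 67.6% to 86.1% under PBS, 53.8% to 84.1% at day 4 and 69.3% to 88.6% at day 11. Relative to PBS, 29 genes had reads in a larger share of libraries at day 4, 5 in a smaller share and 6 in the same; at day 11 the counts were 30, 2 and 8. Ccnb2, Aurkb and Bub1 had 0 reads in every PBS library. In bulk tissue, fewer cells of a type and less RNA per cell cannot be told apart.

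**Figure D1:**
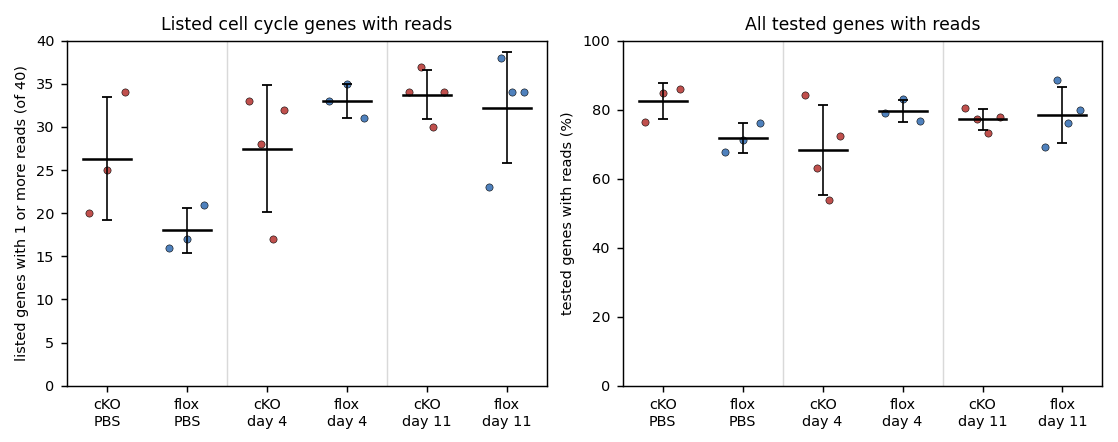
Listed cell cycle genes with at least 1 read, of 40 (left), and share of all tested genes with reads in percent (right), for each library by group; points are libraries and bars the group mean ± SD. Most day 4 and day 11 libraries had reads for 28 to 38 of the 40 genes, and the PBS libraries for 16 to 34.

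**Figure D2:**
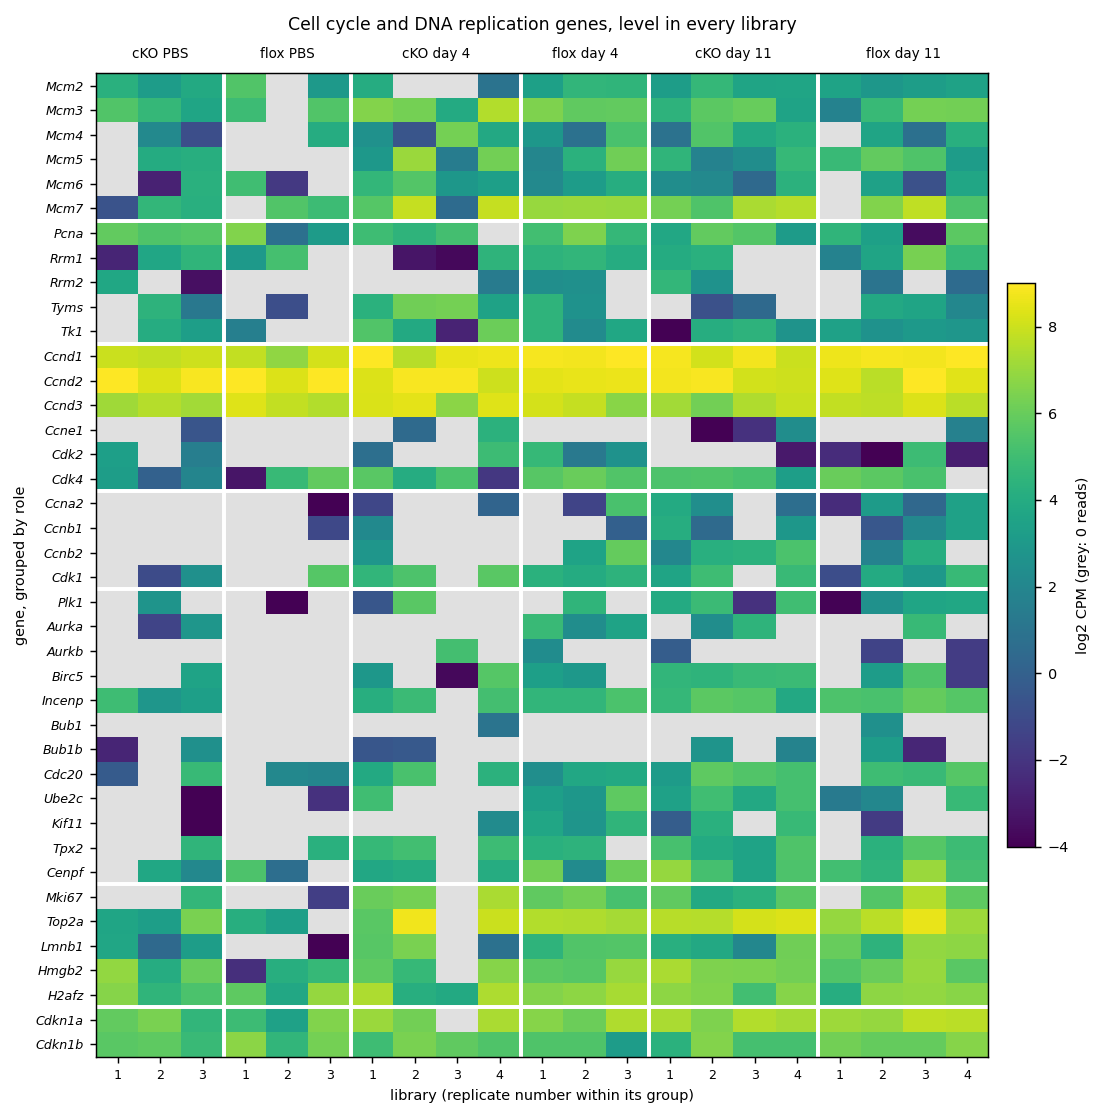
Level of each listed gene (rows, grouped by role) in every library (columns, grouped by stage and genotype), on a log scale of CPM. The cyclins of S, G2 and M phase and the mitotic genes were mostly without reads under PBS, whereas Ccnd1, Ccnd2, Ccnd3 and the CDK inhibitors were detected throughout, apart from Cdkn1a in 1 day 4 library.

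The question of whether nephritis moves these genes was tested at each stage against PBS, averaged over genotypes, with edgeR's quasi-likelihood test and Benjamini-Hochberg adjustment over 13898 genes; 39 of the 40 genes passed the low-count filter and Bub1 did not. None of the 39 had an adjusted p under 0.05 at day 4, where 0.0216% of all genes did, or at day 11, where 0.122% did. At an unadjusted p under 0.05, 14 of the 39 were higher at day 4, against 5.36% of all genes tested, and 16 at day 11, against 6.17%; none was lower. DESeq2 called 13 genes at day 4 and 15 at day 11, against 9.04% and 8.38% of all genes, and limma voom called 0 and 4, against 0.115% and 0.648%. By DESeq2, most of the called genes at each stage had 0 reads in a PBS group. Among them Ccnb2 and Kif11 had log2 fold changes of 23.8 and 15.6 at day 4, which depend on how an empty group is handled. The day 4 and day 11 comparisons share the PBS libraries, so their counts are not separate evidence. Fitted log2 fold changes were above 0 in 33 of 39 genes at day 4 (median 2.29) and in 34 at day 11 (median 2.43), beside 50.5% (median 0.014) and 52.9% (median 0.068) of all genes. With the genes that lacked reads in a group set to a floor of 3 reads, the medians were 2.01 and 2.08. Ccnb2 and Aurkb had 0 reads in every PBS library and passed the filter through nephritis libraries. Their sign above 0 was thus fixed in advance. For Ccna2, Ccnb1, Kif11 and Ube2c, nearly without PBS reads, it was nearly fixed. These genes add no support to the counts above. Every day 4 library was above every PBS library for 0 of the 40 genes, and for 0.101% of all tested genes; at day 11 this held for 1, Top2a, and for 0.194% of all.

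**Figure D3:**
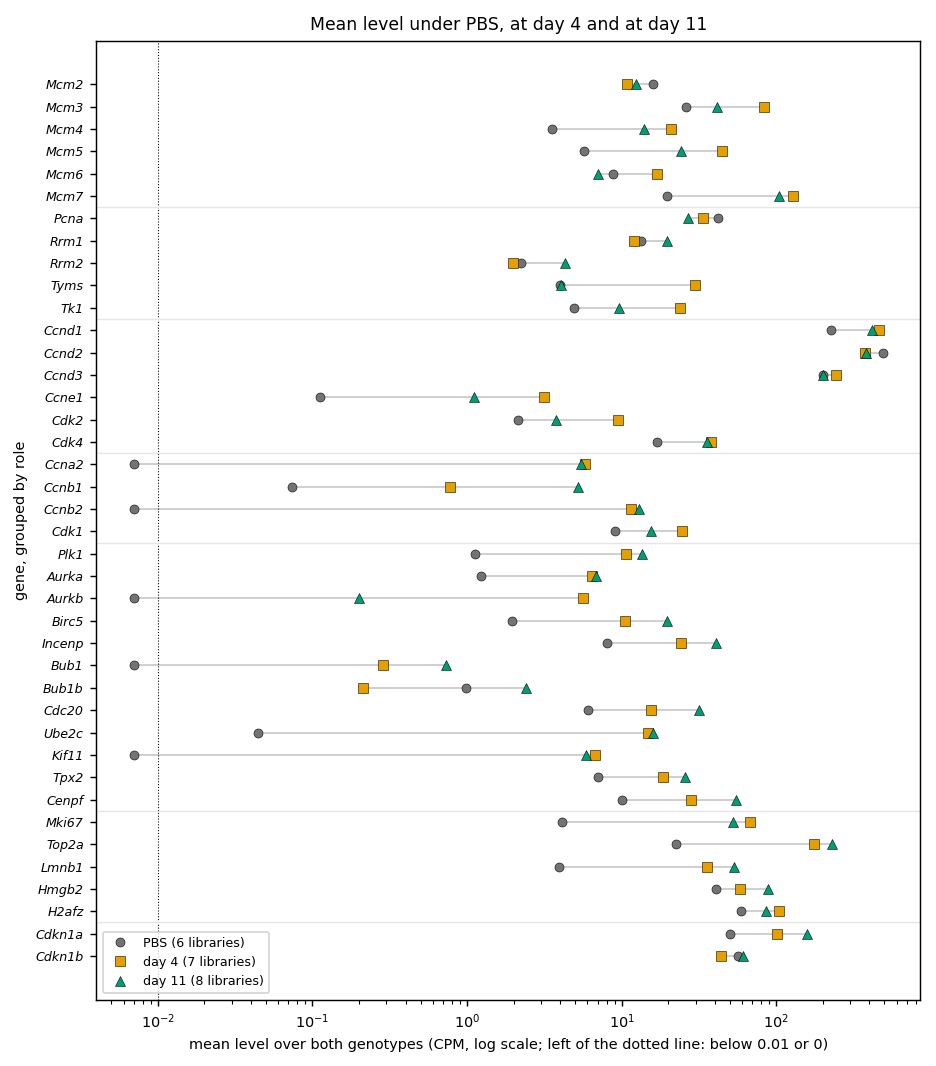
Mean level of each listed gene over both genotypes in CPM (log scale) under PBS, at day 4 and at day 11; genes run down the page by role and marks left of the dotted line are below 0.01 CPM or 0. For the mitotic genes the PBS mark lies left of both nephritis marks in most rows, and the marks of Ccnd2, Ccnd3 and Cdkn1b lie close together.

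Markers of other cell types were read in the same libraries. The 12 macrophage markers summed to 164 to 390.3 CPM under PBS, with 5 to 9 of them read, 77.7 to 609 CPM at day 4, with 6 to 9, and 144 to 459 CPM at day 11, with 6 to 11; Itgam and Ms4a7 were at 0 under PBS and Fcgr1 at day 4. Mesangial markers summed to 967 to 1592 CPM, 442 to 1763 CPM and 1333 to 1983 CPM in the same order, podocyte markers to 3619 to 5573 CPM, 3133 to 5856 CPM and 2415 to 4584 CPM, and parietal epithelial markers to 14.7 to 84.9 CPM, 3.16 to 133 CPM and 16.1 to 260.5 CPM. The 5 neutrophil markers summed to 0 to 96.9 CPM, 0 to 65.6 CPM and 0 to 78.2 CPM, all of it S100a8 and S100a9, since Ly6g, Mpo and Elane were at 0 in every library, and T cell markers summed to 0 to 31.7 CPM, 0 to 80.5 CPM and 0 to 12.7 CPM. Endothelial markers summed to 4146 to 6155 CPM, 3272 to 5341 CPM and 2471 to 4617 CPM. Distal tubule and collecting duct markers summed to 1088 to 2382 CPM, 1204 to 3684 CPM and 334 to 1315 CPM (medians 1725, 1720 and 760). Erythroid markers had medians of 8218, 3540 and 1818 CPM, and mesangial markers, which rose, 1202, 1366 and 1685 CPM. The stages overlapped in each of these sums, and their part in the result was not tested.

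The replicative helicase, Mcm2 to Mcm7, unwinds DNA at origins and forks. Its 6 genes summed to 44.4 to 107.5 CPM (median 81.8) under PBS, 104 to 518 CPM (median 243) at day 4 and 42.9 to 351 CPM (median 191) at day 11. Mcm5 (ENSMUSG00000005410.6, GRCm38 chromosome 8, 75109569 to 75128439, plus strand), whose promoter above has E2F letters, stood at 0, 15.99 and 18.1 CPM in cKO libraries and 0, 0 and 0 CPM in flox libraries under PBS. Day 4 values of Mcm5 were 7.69, 130.4, 2.77 and 74.5 CPM in cKO libraries and 3.88, 19.7 and 71.8 CPM in flox libraries, and day 11 values were 22.4, 3.403, 5.15 and 25.9 CPM in cKO libraries and 27.8, 58.2, 42.2 and 9.08 CPM in flox libraries. Every nephritis library had reads, the 3 flox PBS libraries and 1 cKO PBS library had none, and the other cKO PBS libraries lay inside the nephritis range. Mcm5 averaged 44.4 ± 49.0 CPM at day 4 and 5.67 ± 8.81 CPM under PBS (SD, n = 7 and n = 6), with an adjusted p of 0.18 by edgeR. The mean at day 11 was 24.3 ± 19.0 CPM (SD, n = 8), with an edgeR adjusted p of 0.16. Mcm7, another subunit, averaged 19.7 CPM under PBS, 129 CPM at day 4 and 104 CPM at day 11, and Mcm3 averaged 26.2, 82.6 and 41.2 CPM in those groups. Their fitted log2 fold changes were 2.75 ± 1.38 and 1.61 ± 0.92 (SE) at day 4, with edgeR adjusted p of 0.57 and 0.65. Mcm2 was the helicase gene whose mean was lower at both stages, at 10.8 CPM at day 4 and 12.4 CPM at day 11 against 15.8 CPM under PBS. Mcm4 averaged 3.56 CPM under PBS, 20.9 CPM at day 4 and 14.0 CPM at day 11, and Mcm6 8.73, 16.9 and 7.02 CPM in that order.

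The genes of DNA synthesis and nucleotide supply overlapped between stages. Pcna (the sliding clamp of the polymerases), Rrm1 and Rrm2 (ribonucleotide reductase), Tyms (thymidylate synthase) and Tk1 (thymidine kinase) summed to 8.90 to 103 CPM (median 77.1) under PBS, 55.0 to 129 CPM (median 104) at day 4 and 15.1 to 101.1 CPM (median 61.4) at day 11. None of the 5 had an unadjusted p under 0.05 at either stage by edgeR. Pcna averaged 42.0 CPM under PBS, 33.6 CPM at day 4 and 26.6 CPM at day 11. Tk1 averaged 4.92, 23.8 and 9.58 CPM, and Tyms 3.98, 30.0 and 4.05 CPM, in the same groups. Pcna, Tyms, Ccnd3, Ccnb1 and Ccnb2 have named pseudogenes and 19 of the 40 genes overlap another annotated gene, so their reads could be split or shared in ways the sources used here do not give.

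The G1 cyclins and kinases are read in quiescent cells too. Ccnd1 (ENSMUSG00000070348.5, GRCm38 chromosome 7, 144929931 to 144939925, minus strand) encodes cyclin D1, which responds to growth signals. It stood at 246, 228 and 256 CPM in cKO libraries and 221, 115 and 283 CPM in flox libraries under PBS. Day 4 values of Ccnd1 were 577, 197.04, 376 and 412 CPM in cKO libraries and 455, 439.6 and 752 CPM in flox libraries, and day 11 values were 459.6, 273, 442 and 253 CPM in cKO libraries and 403, 447, 434 and 633 CPM in flox libraries. All but 1 day 4 library and 6 of 8 day 11 libraries were above the highest PBS library. Means were 225 ± 58.2 CPM under PBS (n = 6), 458 ± 172 CPM at day 4 (n = 7) and 418 ± 118 CPM at day 11 (SD, n = 8). The fitted log2 fold change of Ccnd1 was 1.05 ± 0.26 (SE) at day 4 with an edgeR adjusted p of 0.20, and 0.88 ± 0.25 at day 11 with an adjusted p of 0.26. Of its relatives, Ccnd2 averaged 489 CPM under PBS, 376 CPM at day 4 and 379.5 CPM at day 11, and Ccnd3 200.1, 245 and 198.9 CPM. Cdk4, the partner kinase, averaged 16.9, 37.7 and 35.8 CPM.

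Ccne1, encoding cyclin E1 (ENSMUSG00000002068.16), was read in few libraries. Under PBS it stood at 0, 0 and 0.672 CPM in cKO libraries and 0, 0 and 0 CPM in flox libraries, at day 4 at 0, 1.398, 0 and 20.6 CPM in cKO libraries and 0, 0 and 0 CPM in flox libraries and at day 11 at 0, 0.0642, 0.224 and 5.25 CPM in cKO libraries and 0, 0, 0 and 3.31 CPM in flox libraries. In each of the cKO day 4, cKO day 11 and flox day 11 groups, replicate 4 carried nearly all of its reads. Cdk2, its kinase, had reads in 2 cKO and 0 flox PBS libraries and in all 3 flox day 4 libraries; its means were 2.15 CPM under PBS, 9.48 CPM at day 4 and 3.77 CPM at day 11.

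The cyclins of S, G2 and M phase and Cdk1, the kinase that drives entry into mitosis, summed to 0 to 48.7 CPM (median 0.244) under PBS, 0 to 122 CPM (median 35.1) at day 4 and 0.715 to 77.3 CPM (median 39.7) at day 11. Ccnb2 (ENSMUSG00000032218.7, GRCm38 chromosome 9, 70407692 to 70421547, minus strand), which encodes cyclin B2, had 0 reads in all 6 PBS libraries. At day 4 Ccnb2 stood at 7.08, 0, 0 and 0 CPM in cKO libraries and 0, 11.8 and 61.8 CPM in flox libraries, and at day 11 at 4.09, 18.6, 20.4 and 39.9 CPM in cKO libraries and 0, 3.39, 17.3 and 0 CPM in flox libraries. It was read in 3 of 7 day 4 and 6 of 8 day 11 libraries. Set against a floor of 3 reads over the PBS libraries, its mean was 449-fold higher at day 4 and 506-fold higher at day 11. That floor covers counting error and not the spread between mice, which left some nephritis libraries at 0 too, so these ratios are not lower bounds. Flox day 4 replicate 3 carried most of the day 4 mean, and without it the day 4 ratio was 123-fold. Ccnb2 had an edgeR adjusted p of 0.38 at day 4 and 0.31 at day 11. Ccnb1, encoding cyclin B1 (ENSMUSG00000041431.16), stood at 0, 0 and 0 CPM in cKO libraries and 0, 0 and 0.445 CPM in flox libraries under PBS. Its day 4 values were 4.43, 0, 0 and 0 CPM in cKO libraries and 0, 0 and 0.998 CPM in flox libraries, and its day 11 values were 17.4, 1.41, 0 and 7.35 CPM in cKO libraries and 0, 0.721, 4.25 and 10.8 CPM in flox libraries. Ccnb1 was thus read in 2 of 7 day 4 and 6 of 8 day 11 libraries.

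Cdk1 (ENSMUSG00000019942.13) stood at 0, 0.489 and 5.82 CPM in cKO libraries and 0, 0 and 48.2 CPM in flox libraries under PBS, at day 4 at 23.2, 41.2, 0 and 50.2 CPM in cKO libraries and 20.0, 16.3 and 21.1 CPM in flox libraries and at day 11 at 12.1, 31.3, 0 and 28.4 CPM in cKO libraries and 0.520, 15.5, 7.75 and 27.4 CPM in flox libraries. At day 4, 6 of 7 libraries held at least 16.3 CPM, but flox PBS replicate 3 held 48.2 CPM, near the highest nephritis value, so the groups overlapped. Cdk1 had a fitted log2 fold change of 2.01 ± 1.78 (SE) at day 4 and 1.38 ± 1.70 at day 11, with edgeR adjusted p of 0.94 and 1.0. Ccna2, encoding cyclin A2, had a single PBS library with reads, at 0.0556 CPM, and reached 38.3 CPM in a flox day 4 library and 15.2 CPM in a cKO day 11 library.

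The mitotic kinases, checkpoint, spindle and exit genes were above 0 in nearly all of their members, and their summed level was 5.86 to 89.4 CPM (median 29.7) under PBS, 34.5 to 212 CPM (median 156) at day 4 and 77.5 to 353 CPM (median 223) at day 11. Of the 11 tested, 10 were above 0 at day 4 and 11 at day 11, 6 and 7 of them at an unadjusted p under 0.05. Over all genes tested, 50.5% and 52.9% were above 0, and 5.36% and 6.17% were higher at that threshold. The genes above 0 include Aurkb, Ube2c and Kif11, whose sign was fixed or nearly fixed by the lack of PBS reads. Incenp, Birc5, Aurka and Bub1b had 0 reads in every flox PBS library, a group that counts as much as cKO PBS in the fit. Incenp (ENSMUSG00000024660.9, GRCm38 chromosome 19, 9872296 to 9899551, minus strand), a scaffold of the chromosomal passenger complex, stood at 30.7, 7.19 and 10.2 CPM in cKO libraries and 0, 0 and 0 CPM in flox libraries under PBS. Day 4 values of Incenp were 17.5, 29.3, 0 and 34.1 CPM in cKO libraries and 23.4, 23.6 and 40.1 CPM in flox libraries, and day 11 values were 25.0, 52.1, 47.5 and 14.4 CPM in cKO libraries and 40.9, 38.7, 60.3 and 47.7 CPM in flox libraries. The flox PBS libraries had no reads, whereas cKO PBS replicate 1 lay inside the nephritis range and cKO day 4 replicate 3 had none. Means were 8.02 ± 12.0 CPM under PBS (n = 6), 23.996 ± 13.0 CPM at day 4 (n = 7) and 40.8 ± 14.9 CPM at day 11 (SD, n = 8). Incenp had an edgeR adjusted p of 0.18 at day 4 and 0.061 at day 11. Without cKO day 4 replicate 3 these were 0.023 and 0.0050, so the edgeR call of Incenp turned on that library. The call also turned on the tool. With all libraries kept, DESeq2 gave Incenp an adjusted p of 8.5e-07 at day 4 and 6.3e-09 at day 11. The limma voom value at day 11 was 0.0011.

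Ube2c (ENSMUSG00000001403.13), the ubiquitin-conjugating enzyme of mitotic exit, stood at 0, 0 and 0.0448 CPM in cKO libraries and 0, 0 and 0.223 CPM in flox libraries under PBS. At day 4 Ube2c was 32.1, 0, 0 and 0 CPM in cKO libraries and 10.1, 7.24 and 53.9 CPM in flox libraries, and at day 11 it was 11.0, 32.9, 14.3 and 35.5 CPM in cKO libraries and 2.53, 3.99, 0 and 26.8 CPM in flox libraries. In all, 11 of 15 nephritis libraries exceeded every PBS library, and the 4 others were at 0. Means were 0.0445 ± 0.0890 CPM under PBS (n = 6), 14.8 ± 20.7 CPM at day 4 (n = 7) and 15.9 ± 14.1 CPM at day 11 (SD, n = 8). Ube2c had an edgeR adjusted p of 0.38 at day 4 and 0.34 at day 11. Cdc20, an activator of the same ubiquitin ligase, averaged 6.05 CPM under PBS, 15.4 CPM at day 4 and 31.5 CPM at day 11.

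Birc5 (ENSMUSG00000017716.15), which encodes survivin, stood at 0, 0 and 11.8 CPM in cKO libraries and 0, 0 and 0 CPM in flox libraries under PBS, at day 4 at 7.27, 0, 0.0769 and 48.3 CPM in cKO libraries and 10.2, 7.73 and 0 CPM in flox libraries and at day 11 at 23.9, 22.0, 28.4 and 29.5 CPM in cKO libraries and 0, 9.03, 42.8 and 0.313 CPM in flox libraries. All 4 cKO day 11 libraries exceeded every PBS library, as did 1 of 4 flox day 11 libraries. Bub1b (ENSMUSG00000040084.9), a spindle checkpoint kinase, stood at 0.157, 0 and 5.73 CPM in cKO libraries and 0, 0 and 0 CPM in flox libraries under PBS, at day 4 at 0.699, 0.777, 0 and 0 CPM in cKO libraries and 0, 0 and 0 CPM in flox libraries and at day 11 at 0, 6.55, 0 and 3.501 CPM in cKO libraries and 0, 9.03, 0.167 and 0 CPM in flox libraries. It never exceeded 9.03 CPM. Its partner Bub1 had reads in 1 cKO day 4 and 1 flox day 11 library only, and was not tested. Plk1, a kinase of mitotic entry, averaged 1.13 CPM under PBS, 10.7 CPM at day 4 and 13.5 CPM at day 11. Cenpf, a kinetochore protein, averaged 10.1, 28.0 and 54.7 CPM, and Tpx2, a spindle assembly factor, 7.06, 18.6 and 25.7 CPM. Aurka, a spindle pole kinase, had no reads in any cKO day 4 library but had reads in each flox day 4 library. Aurkb, the kinase of the passenger complex, was read in 2 of 7 day 4 and 3 of 8 day 11 libraries, and Kif11, a spindle motor, in 4 and 4.

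**Figure D4:**
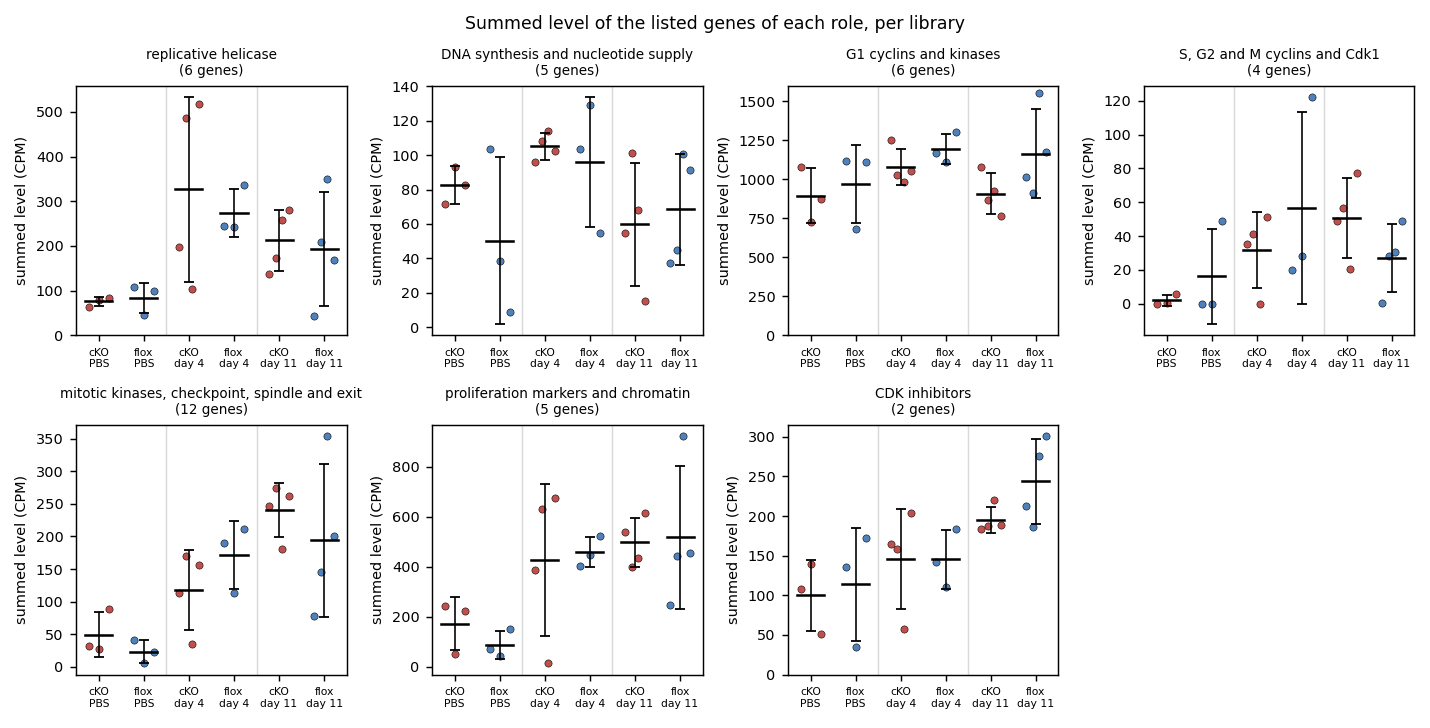
Summed level in CPM of the listed genes of each role, per library and group, with the group mean ± SD; the axes differ between panels. The sums of the mitotic genes and of the proliferation markers lay higher in most nephritis libraries than under PBS, and those of DNA synthesis and the G1 genes overlapped throughout.

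The proliferation markers and chromatin genes summed to 41.6 to 245 CPM (median 112) under PBS, 14.7 to 676 CPM (median 447) at day 4 and 249 to 921 CPM (median 449) at day 11, where each library exceeded every PBS library. Mki67 (ENSMUSG00000031004.8, GRCm38 chromosome 7, 135689784 to 135716361, minus strand) encodes the Ki-67 antigen of cycling nuclei. It stood at 0, 0 and 24.3 CPM in cKO libraries and 0, 0 and 0.334 CPM in flox libraries under PBS. At day 4 Mki67 was 64.9, 78.5, 0 and 160.9 CPM in cKO libraries and 56.3, 74.5 and 37.6 CPM in flox libraries, and at day 11 it was 56.5, 15.0, 19.5 and 50.6 CPM in cKO libraries and 0, 45.3, 178 and 55.7 CPM in flox libraries. At day 4, 6 of 7 libraries were above every PBS library, and cKO replicate 3 had no reads; at day 11, 5 of 8 were above. Means were 4.11 ± 9.90 CPM under PBS (n = 6), 67.5 ± 49.1 CPM at day 4 (n = 7) and 52.6 ± 55.0 CPM at day 11 (SD, n = 8). The fitted log2 fold change of Mki67 was 6.06 ± 1.78 (SE) at day 4 and 5.67 ± 1.74 at day 11, with edgeR adjusted p of 0.38 and 0.34. The fit averages the genotypes on the log scale, so the nearly empty flox PBS group counts as much as the cKO one. Nearly all PBS reads of Mki67 came from cKO replicate 3, and without that library the adjusted p were 0.046 and 0.027.

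Top2a (ENSMUSG00000020914.17, GRCm38 chromosome 11, 98992943 to 99024189, minus strand), the topoisomerase that untangles replicated chromosomes, stood at 12.7, 9.88 and 84.3 CPM in cKO libraries and 18.0, 9.95 and 0 CPM in flox libraries under PBS. Day 4 values of Top2a were 51.1, 424, 0 and 248 CPM in cKO libraries and 179.4, 172 and 152 CPM in flox libraries, and day 11 values were 194, 188, 291 and 316 CPM in cKO libraries and 124, 198.96, 378 and 136 CPM in flox libraries. All 8 day 11 libraries exceeded every PBS library, and 5 of 7 day 4 libraries did; cKO day 4 replicate 3 again had none. Means were 22.5 ± 30.9 CPM under PBS (n = 6), 175 ± 138 CPM at day 4 (n = 7) and 228 ± 90.3 CPM at day 11 (SD, n = 8). In the fit, Top2a had log2 fold changes of 3.26 ± 1.23 and 3.64 ± 1.23 (SE), with edgeR adjusted p of 0.41 at day 4 and 0.34 at day 11.

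Lmnb1 (ENSMUSG00000024590.8, GRCm38 chromosome 18, 56707813 to 56753424, plus strand) encodes lamin B1 of the nuclear lamina, a protein kept by proliferating cells. It stood at 12.7, 1.37 and 9.45 CPM in cKO libraries and 0, 0 and 0.0556 CPM in flox libraries under PBS. At day 4 Lmnb1 was 49.3, 84.2, 0 and 1.82 CPM in cKO libraries and 21.7, 44.2 and 46.4 CPM in flox libraries, and at day 11 it was 18.3, 14.4, 4.03 and 72.5 CPM in cKO libraries and 63.9, 21.0, 118 and 111 CPM in flox libraries. Lmnb1 was nearly absent from flox PBS libraries, and 5 of 7 day 4 and 7 of 8 day 11 libraries exceeded every PBS library. Means were 3.93 ± 5.66 CPM under PBS (n = 6), 35.4 ± 29.8 CPM at day 4 (n = 7) and 52.9 ± 45.0 CPM at day 11 (SD, n = 8). Its log2 fold changes, 6.32 ± 1.47 and 6.70 ± 1.48 (SE), had edgeR adjusted p of 0.18 at day 4 and 0.061 at day 11. Without cKO day 4 replicate 3 they were 0.019 and 0.0051, and the day 11 value was 0.042 without cKO day 4 replicate 4 and 0.040 without cKO day 11 replicate 3. Hmgb2, a chromatin protein of cycling cells, averaged 40.7 CPM under PBS, 58.4 CPM at day 4 and 87.7 CPM at day 11, and H2afz, a histone variant made by most cells, 59.1, 104 and 85.8 CPM.

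The CDK inhibitors oppose division. Neither was called by edgeR, and a difference between them was not tested. Cdkn1a (ENSMUSG00000023067.14, GRCm38 chromosome 17, 29090976 to 29100727, plus strand), a target of p53, stood at 58.0, 84.9 and 23.5 CPM in cKO libraries and 30.2, 11.0 and 93.2 CPM in flox libraries under PBS. Day 4 values of Cdkn1a were 133, 74.9, 0 and 162 CPM in cKO libraries and 98.6, 66.6 and 175 CPM in flox libraries, and day 11 values were 164, 90.3, 184 and 152.5 CPM in cKO libraries and 137, 125, 215 and 202 CPM in flox libraries. Of the day 4 libraries 4 of 7 were above every PBS library, and of the day 11 libraries 7 of 8. Means were 50.1 ± 34.0 CPM under PBS (n = 6), 101.4 ± 60.9 CPM at day 4 (n = 7) and 159 ± 41.6 CPM at day 11 (SD, n = 8). Cdkn1a had log2 fold changes of 1.04 ± 0.76 and 1.67 ± 0.76 (SE), with edgeR adjusted p of 0.83 and 0.50. Cdkn1b (ENSMUSG00000003031.14), an inhibitor of resting cells, stood at 50.5, 55.0 and 27.9 CPM in cKO libraries and 105, 23.5 and 78.9 CPM in flox libraries under PBS. At day 4 Cdkn1b was 31.6, 82.9, 56.9 and 42.1 CPM in cKO libraries and 43.4, 43.2 and 9.04 CPM in flox libraries, and at day 11 it was 20.0, 96.8, 35.8 and 36.5 CPM in cKO libraries and 76.0, 61.1, 60.7 and 99.3 CPM in flox libraries. No stage stood apart for Cdkn1b, with fitted log2 fold changes of -0.43 ± 0.63 at day 4 and 0.10 ± 0.61 at day 11 (SE); the day 11 value was -0.21 without cKO replicate 2 of that group.

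Between the stages, day 11 was set against day 4. No gene of the 39 was called by edgeR, as for all genes (0.0%), and 1 was higher at an unadjusted p under 0.05, Bub1b, against 5.1% of all; DESeq2 called 1 (6.99% of all) and limma voom 0 (0.0791%). Of the 39, 22 were above 0, with a median log2 fold change of 0.30, beside 52.9% (median 0.070) of all genes. That count of 1 was 0 without flox day 4 replicate 1, 2 or 3 or flox day 11 replicate 2, 2 without cKO day 4 replicate 4 and 4 without cKO day 4 replicate 1. Among helicase genes 5 of 6 were below 0, with a median of -0.77, and 9 of 11 mitotic genes above 0, with a median of 0.74.

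Within cKO mice, 0 genes were called by edgeR at day 4, as for all genes (0.0%), and 0 at day 11, where 0.0504% of all genes were. At an unadjusted p under 0.05, 3 genes were higher at day 4 (Ube2c, Aurkb and Ccnb2), against 2.21% of all, and 1 lower (Aurka). At day 11, 5 were higher (Ube2c, Ccnb2, Ccna2, Ccnb1 and Kif11), against 2.59%. Aurkb, Ccnb2, Ccna2 and Ccnb1 had 0 reads in every cKO PBS library, and Aurka in every cKO day 4 library, so their signs were fixed in advance. For Ube2c and Kif11, with 1 cKO PBS read each, the sign was nearly fixed. At day 4, Ube2c and Ccnb2 were read only in cKO replicate 1 and Aurkb only in cKO replicate 3. These genes add no support to the counts. DESeq2 called 4 at each stage, against 5.71% of all genes at day 4 and 4.6% at day 11, and limma voom called 0 at day 4 (0.259% of all) and 2 at day 11 (0.741%). The day 4 count was 0 without cKO PBS replicate 1 and 1 without cKO PBS replicate 2 or cKO day 4 replicate 1, and the day 11 count was 2 without cKO PBS replicate 1 or 2. Within flox mice, edgeR likewise called 0 at day 4 and at day 11 (0.0% of all genes at each). There were 13 genes higher at day 4 at an unadjusted p under 0.05, against 5.55% of all, and 10 at day 11, against 5.9%. However, 11 of the 39 tested genes had 0 reads in every flox PBS library, so their level could not be lower in nephritis. They were Mcm5, Rrm2, Ccne1, Cdk2, Ccnb2, Aurka, Aurkb, Birc5, Incenp, Bub1b and Kif11. These genes add no support to the counts of 13 and 10. Lmnb1, Ccna2 and Plk1 had 1 flox PBS read each. DESeq2 called 12 at each stage, against 8.1% and 8.17% of all, and limma voom 4 and 3, against 0.446% and 0.187%. Without cKO day 4 replicate 3, 1 was called in flox mice at day 4 and 2 at day 11. The median log2 fold changes were 1.77 at day 4 and 1.46 at day 11 in cKO mice, and 2.07 and 3.31 in flox mice; with genes lacking reads in a group at the floor, the flox day 11 median was 2.28 and the others were the same.

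Whether the nephritis change differed between genotypes was tested as an interaction. At day 4, 25 of 39 genes had a smaller fitted nephritis change in cKO than in flox mice (median -1.60), beside 7855 of all 13898 genes (median -0.28). At day 11 it was 23 of 39 (median -0.43), beside 7677 of 13898 (median -0.20). edgeR called 0 at either stage, as for all genes (0.0% at both). An unadjusted p under 0.05 was reached by 6 genes at day 4 (Incenp, Mcm5, Lmnb1, Aurka, Rrm2 and Cdk2), and 6 at day 11 (Incenp, Mcm5, Lmnb1, Cdk2, Mki67 and Tyms); all were negative, as were 5.81% and 5.1% of all genes at that threshold. DESeq2 called 8 and 7, against 8.01% and 6.84% of all, and limma voom 0 at both (0.072% and 0.0288%). Incenp, Mcm5, Cdk2, Aurka and Rrm2 had 0 reads in every flox PBS library, Lmnb1 had 1 read there in all, and Aurka also had 0 in every cKO day 4 library, so these fits depend on how a group without reads is handled.

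Under PBS, more of the 40 genes had reads in cKO than in flox libraries, and so did more of all tested genes. Reads were found for 79 of 120 gene and library pairs in cKO and 54 of 120 in flox PBS libraries. Over all tested genes the share with reads was 76.5% to 86.1% in cKO and 67.6% to 76.3% in flox PBS libraries, without overlap, and its part in the values below was not tested. Averaged over stages, edgeR called 0 of the 39 genes, against 0.0072% of all, and 6 were higher in cKO at an unadjusted p under 0.05 (Incenp, Mcm5, Ccne1, Bub1b, Lmnb1 and Birc5), against 3.95% of all genes higher; DESeq2 called 4 (6.5% of all) and limma voom 0 (0.0216%). Of the 39, 21 were above 0, with a median of 0.088, beside 50.7% (median 0.0099) of all genes. The count of 6 was 3 without cKO PBS replicate 3. Under PBS, 0 were called (0.0% of all) and 7 were higher in cKO (Incenp, Mcm5, Lmnb1, Mki67, Birc5, Cdk2 and Rrm2), against 4.62% of all; DESeq2 called 8 (6.73% of all) and limma voom 1 (0.295%). That count was 4 without flox PBS replicate 1 or 2. Incenp, Mcm5, Birc5, Cdk2 and Rrm2 had 0 reads in every flox PBS library, so they could not be lower in cKO under PBS. Lmnb1 had 1 read and Mki67 6 reads there, so their sign was nearly fixed. These genes add no support to the count of 7. Of the 6 averaged over stages, Incenp, Mcm5, Ccne1, Bub1b and Birc5 had 0 reads in every flox PBS library. Their fits depend on how a group without reads is handled. Incenp, for example, averaged 16.04 ± 12.8 CPM in cKO PBS libraries and 0 in flox PBS libraries (SD, n = 3 each). Lmnb1 averaged 7.85 ± 5.85 CPM in cKO and 0.0185 ± 0.0321 CPM in flox PBS libraries (SD, n = 3 each), but 27.3 CPM in cKO and 78.5 CPM in flox libraries at day 11, so its fitted average of 2.203 ± 0.95 (SE) has the sign of the PBS stage and not of the day 11 means.

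At day 4, cKO against flox, edgeR called 0 (0.0% of all); Ccne1 was higher and Aurka lower at an unadjusted p under 0.05, 2 genes of 39, against 7.42% of all, and DESeq2 called 1 (5.76% of all) and limma voom 0 (0.0576%). The count of 2 was 1 without flox day 4 replicate 1 or 3 and 4 without cKO day 4 replicate 1 or 4. Ccne1 had 0 reads in every flox day 4 library and Aurka in every cKO day 4 library, so both signs were fixed in advance. At day 11 edgeR called 0 (0.0% of all); Cdk2 was lower at an unadjusted p under 0.05, 1 gene of 39, against 5.86% of all, and DESeq2 (3.56% of all) and limma voom (0.0935%) called 0. The count ranged from 0, without flox day 4 replicate 1 or cKO day 11 replicate 2, to 2, without any 1 cKO day 4 library or flox day 11 replicate 2. Mki67 averaged 76.0 CPM in cKO and 56.2 CPM in flox libraries at day 4, and Top2a 247 CPM in cKO and 209 CPM in flox libraries at day 11. With SDs of 66.1 and 18.5 CPM for Mki67, the gap between its means is smaller than the spread in cKO.

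The rest of the cell cycle machinery was read from a list of 113 other genes, of which 106 were tested. At day 4, 81 were above 0 (median log2 fold change 1.60) and 29 were higher at an unadjusted p under 0.05. At day 11, 85 were above 0 (median 1.96) and 31 were higher. Over all genes tested, 50.5% and 52.9% were above 0 and 5.36% and 6.17% were higher at that threshold. Genes without PBS reads, such as Foxm1, could only be fitted above 0. None of the 106 was called by edgeR, against 0.0216% of all genes at day 4 and 0.122% at day 11. Between genotypes, averaged over stages, 49 of 106 were above 0 (median -0.078), beside 50.7% of all genes. At an unadjusted p under 0.05, 8 were higher and 6 lower in cKO, against 3.95% and 2.67% of all genes. Foxm1, the transcription factor of the mitotic programme, had 0 reads in the PBS libraries and up to 83.6 CPM at day 4 and 61.0 CPM at day 11, with edgeR adjusted p of 0.38 and 0.25. Racgap1 and Anln, which act in cytokinesis, reached 84.6 and 87.5 CPM at day 4, against 7.79 and 1.49 CPM at most under PBS, and Asf1b, a histone chaperone, 12.8 CPM against 0. The highest values of Racgap1 and Anln were both in cKO day 4 replicate 3, and the next day 4 libraries held 43.3 and 37.1 CPM. The adjusted p of Racgap1, Anln and Asf1b were each 0.38 by edgeR. At day 11 Rfc5, a clamp loader subunit, reached 36.7 CPM against at most 0.0448 CPM under PBS, Nuf2, a kinetochore protein, 16.1 CPM against 0, and Cdca3 37.8 CPM against 0, with edgeR adjusted p of 0.27, 0.31 and 0.31. Kif20b, Racgap1 and Ckap2l were fitted higher and Sgo1, which protects centromere cohesion, lower in cKO than in flox, with edgeR adjusted p of 0.51, 0.55, 0.59 and 0.55.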

How the data were processed

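Gene expression was measured in 21 glomerular libraries in 6 groups. For each library the authors deposited a table of raw estimated counts by gene, as the file headers name them; of values above 0, 95.2% were whole within 0.005. The submitters' processing notes name build mm10 and the tools DRAGEN, fastp, FastQC and Picard, without versions or roles. The sources used here do not give the strand setting, how duplicate or shared reads were handled, or the annotation release. No pair of libraries held identical values.

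Identifiers were matched to symbols for 35513 of 35598 genes. In R 4.3.3, edgeR 4.0.16 was run on counts rounded to whole numbers: filterByExpr (minimum count 10) kept 13898 genes, TMM set the scale (factors 0.751 to 1.12), and the robust quasi-likelihood F test was fitted to 6 group means with 15 residual degrees of freedom and a common BCV (biological coefficient of variation) of 1.66. Genes were called where the Benjamini-Hochberg adjusted p, over all genes tested in each of 13 comparisons, was under 0.05. DESeq2 1.42.0, limma voom 3.58.1, other filters and scalings, a replicate block and leaving out libraries were alternatives. Each standard error is the size of the log2 fold change over the root of F. Means and SDs of CPM pool the mice of a stage, and floors of 3 reads cover counting error only. The plots were made in Python 3.11.15 (matplotlib 3.10.9).

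The genes, lists, tests and rule for named genes were chosen with earlier results of these data known. Values in every library are given for Mki67, Top2a, Mcm5, Cdk1, Ccnb1, Cdkn1a and Cdkn1b, and for the 6 tested genes with the smallest unadjusted p at day 4 against PBS, at day 11 against PBS and between genotypes averaged over stages. Of the other cell cycle genes, the 4 with the smallest p in each of these comparisons are named. Replicate numbers did not pair the libraries.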

Additional observations from a re-analysis of the deposited data

Results flagged for a closer look

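For the 15 genes given library by library, the 7 sums by role and the number of the 40 genes with reads, values were looked at in each of the 3 groups of 4 libraries, 69 sets in all. In 10 of them 1 library stood far from the rest. About 1 in 20 would by chance for normally distributed values, but in 4 of the 10 the other 3 libraries were all at 0, and the rate for such sparse values was not tested. In cKO day 4 replicate 1, Ccnb1 was at 4.43 CPM, Ccnb2 at 7.08 CPM and Ube2c at 32.1 CPM, with 0 in the other 3 libraries of the group. Ube2c was also high in flox day 11 replicate 4, at 26.8 CPM against 0 to 3.99 CPM. Ccne1 was at 20.6 CPM in cKO day 4 replicate 4 against 0 to 1.398 CPM, at 5.25 CPM in cKO day 11 replicate 4 against 0 to 0.224 CPM, and at 3.31 CPM in flox day 11 replicate 4 against 0. Birc5 was at 48.3 CPM in cKO day 4 replicate 4 against 0 to 7.27 CPM, and Bub1b at 9.03 CPM in flox day 11 replicate 2 against 0 to 0.167 CPM. The summed CDK inhibitors were at 220.1 CPM in cKO day 11 replicate 3, the library with the fewest reads, against 184 to 189 CPM.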

How the results depend on the processing

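Of 810 alternative values for 80 results, 701 kept their direction and their side of the threshold or stayed within 1.5 times. The members called at an adjusted p under 0.05 were 0 by edgeR in every comparison. Without the low-count filter they were 1 at day 4 and 2 at day 11 against PBS and 1 in flox mice at day 11. Without the 3 libraries named above they were 2, 3 and 2 in those comparisons, and with only the compared groups 2 at day 11. limma voom called 4 at day 11, 2 in cKO mice at day 11, 4 and 3 in flox mice at day 4 and day 11, and 1 between genotypes under PBS. DESeq2 called 13 at day 4, 15 at day 11, 1 between the stages, 4 and 4 in cKO mice, 12 and 12 in flox mice, 4 between genotypes averaged over stages, 8 under PBS, 1 at day 4, and 8 and 7 in the interactions; over all genes it called 3.56% to 9.04% in each comparison, and limma voom 0.0216% to 0.741%. In each comparison where DESeq2 called any of these genes, most of those called had 0 reads in a compared group. By edgeR, leaving out 1 library gave 0 to 2 at day 4, 0 to 2 at day 11, 0 to 1 in flox mice at day 4 and 0 to 2 at day 11. The cause was not tested.

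Counts at an unadjusted p under 0.05 moved more. Day 11 against day 4 (1) had 0 without the filter and 0 to 4 leaving out 1 library. In cKO mice at day 4 (3) they were 0 with a replicate block, 8 with detected genes as a covariate, 6 without the 3 libraries, 0 with only the compared groups, 5 by limma voom, 6 by DESeq2 and 0 to 4 leaving out 1 library; at day 11 (5) they were 9 with only the compared groups, 12 by limma voom, 8 by DESeq2 and 2 to 7. Between genotypes averaged over stages (6) they were 3 with the block, 2 by limma voom and 3 to 9. Under PBS (7) they were 3 with the block, 2 with only the compared groups, where 11 of 21 tested genes were above 0, 3 by limma voom, 11 by DESeq2 and 4 to 8. At day 4 (2) they were 1 without the filter, 1 with only the compared groups, 4 by limma voom, 1 by DESeq2 and 1 to 4; at day 11 (1) they were 2 with the covariate, 0 without the 3 libraries, 0 with only the compared groups, 3 by limma voom, 2 by DESeq2 and 0 to 2. The interaction at day 4, with 14 genes above 0, had 8 by limma voom and 9 to 18 leaving out 1 library.

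Log2 fold changes that turned were Cdkn1b at day 11, -0.21 to 0.31 leaving out 1 library, and between genotypes Mki67 (-1.53 to 3.22), Cdk1 (-1.65 to 3.10), Ccnb1 (-3.10 to 1.19) and Cdkn1a (-0.22 to 0.31; 0.00074 with the block and 0.0049 without the 3 libraries). Same-numbered libraries did not deviate together (median r -0.0013 over 48 pairs, -0.051 to 0.030), and 3 of 21 libraries correlated best with their own number. A fit of only the compared groups was not run for genotypes averaged over stages, which uses all groups. Counts within a group spread beyond counting error: Mki67 had 0 reads in cKO day 4 replicate 3 and 1392 to 3616 in the other 3 libraries of that group.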
